A study of Mus musculus with 20 samples.

Results

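The 9 genes of the T helper 1 (Th1) program, Tbx21, Eomes, Hlx, Ifng, Ccl5, Il12rb1, Il12rb2, Il18r1 and Il18rap, were followed in sorted mouse CD4+ T cells with and without Tet2 and Tet3. The genes were chosen by symbol and not by their values, and all 9 were found among the 16740 genes of the table from pooled spleen and peripheral lymph nodes (pLNs) and among the 16784 genes of the table from mesenteric lymph nodes (mLN). The DKO (double knockout) mice were Tet2/3 fl/fl Foxp3Cre animals, in which a YFP-Cre fusion under control of the Foxp3 gene deletes both genes in Treg cells, and the WT mice carried Foxp3Cre alone. All mice were on the C57BL/6 background and 14 weeks old. CD4+YFP+ cells were taken as Treg cells and CD4+YFP- cells as CD4+Foxp3- T cells. Foxp3- cells from DKO mice were therefore not the intended targets of the Cre, but include cells that had lost Foxp3 after expressing it. The authors describe the deletion as specific to YFP+ cells, yet also report much lower Tet2 and Tet3 mRNA in DKO than in WT YFP- cells. They propose that a substantial part of the activated YFP- cells in DKO mice are such former Treg cells. Spleen and pLNs gave 2 biological replicates of each of 4 groups, and mLN gave 3 of each. The DKO mice used for spleen and pLNs were littermates, of which one had the larger spleen, but the labels do not tell its replicate number.

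Th1 cells are the helper cells that make interferon-γ against intracellular microbes. IL-12 acts through a receptor of the chains IL12RB1 and IL12RB2 and signals to STAT4, while IL-18 binds IL18R1 and signals through the accessory chain IL18RAP, and both cytokines raise Ifng transcription in cells that hold the T-box factor T-bet (Tbx21). Eomes is the T-box relative of T-bet, Hlx is a homeobox factor that works with T-bet, and Ccl5 is a chemokine of activated and memory T cells and of natural killer (NK) cells. Some Treg cells are known to take up part of this program, including T-bet.

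In the absence of TET2 and TET3, 3 of the 9 members were called in Treg cells of mLN, where 11.9% of all genes were called. In Treg cells of spleen and pLNs 1 of 9 was called, where 1.74% of all genes were. All of these were receptor genes. The transcription factors of the program and Ifng were called in neither tissue in the main fit. In Treg cells of spleen and pLNs some alternative fits called Ifng and Tbx21 as lower in DKO, as given below. Il12rb2 was 14.8-fold higher in DKO than in WT Treg cells of mLN, Il18r1 was 2.89-fold lower there and 4.0-fold lower in spleen and pLNs, and Il12rb1 was 1.51-fold lower in mLN. The mLN WT Treg libraries held only between 2 and 6 reads of Il12rb2, so the size of its fold is uncertain. The calls of Il12rb1 in mLN and of Il18r1 in spleen and pLNs were lost in some alternative fits, as given below. In CD4+Foxp3- cells of the same mice no member passed the test in either tissue, where 0.819% of all genes in spleen and pLNs and 3.43% in mLN did. Levels are given as CPM, the reads of a gene scaled to the library size after TMM normalization, and 3 counts, the limit set for a gene without reads, equalled between 0.172 and 0.299 CPM. Genes were called with edgeR's quasi-likelihood test where the p adjusted after Benjamini and Hochberg over all genes tested was 0.05 or less and the fold change 1.5 or more.

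The start regions of 3 members are shown because Il12rb2 and Il18r1 are the members with the clearest and opposite changes and Ifng is the cytokine of the program. The sequences are the 250 bases before the RefSeq start of each gene on GRCm38.p6, written 5′ to 3′ in the direction of transcription, and capitals mark matches to the STAT motif TTCNNNGAA.
Ifng (chr10:118440796-118441045, plus strand): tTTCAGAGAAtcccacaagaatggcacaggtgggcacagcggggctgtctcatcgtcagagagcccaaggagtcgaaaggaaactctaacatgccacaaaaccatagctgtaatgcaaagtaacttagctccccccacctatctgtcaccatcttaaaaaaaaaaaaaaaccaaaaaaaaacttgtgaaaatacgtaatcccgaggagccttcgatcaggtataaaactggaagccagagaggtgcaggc
Il12rb2 (chr6:67376189-67376438, minus strand): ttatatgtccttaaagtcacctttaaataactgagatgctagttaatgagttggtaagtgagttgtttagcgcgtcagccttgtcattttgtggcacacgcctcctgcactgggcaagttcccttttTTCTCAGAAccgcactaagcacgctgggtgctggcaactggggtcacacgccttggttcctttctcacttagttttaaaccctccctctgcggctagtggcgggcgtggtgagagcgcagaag
Il18r1 (chr1:40465302-40465551, plus strand): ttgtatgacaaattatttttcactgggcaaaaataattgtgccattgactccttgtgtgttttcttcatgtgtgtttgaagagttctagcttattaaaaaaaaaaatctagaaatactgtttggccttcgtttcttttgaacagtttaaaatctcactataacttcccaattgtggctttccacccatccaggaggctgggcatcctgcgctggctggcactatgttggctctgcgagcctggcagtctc
The reference table held such windows for 7 of the 9 members (not for Il12rb1 or Ccl5), with 3 alternative starts for Il18r1, of which the most upstream is printed. The STAT motif occurred once in the Ifng window, 249 bases before the start, and once in the Il12rb2 window, 123 bases before it. It was absent from the windows of Tbx21, Eomes, Hlx and Il18rap and from the printed Il18r1 window. In the window of the most downstream Il18r1 start it occurred 2 times. Over all 27025 windows of this length, 7.18% held the motif. The T-box motif GGTGTGA and the Runx motif TGTGGT, searched on both strands, were in none of the member windows, against 3.31% and 14.2% of all windows. The windows held between 3 (Il18r1) and 16 (Tbx21) CpG dinucleotides, where the median window held 6. A match of letters is a description and shows no binding.

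The sorted populations carried their labels. Foxp3 lay between 153 and 419 CPM in all Treg libraries and between 0.211 and 2.75 CPM in all Foxp3- libraries, and Cd3e between 474 and 791 CPM throughout. Tet2 and Tet3 reads are counted over the whole gene, including exons outside the deleted part, so their counts do not check the deletion. Libraries held between 9998478 and 15449158 counted reads. The sum of 7 NK cell markers found of 8 listed moved with genotype: it was between 6.54 and 7.61 CPM in WT, against between 90.2 and 115 CPM in DKO Treg cells of spleen and pLNs, and between 5.80 and 8.35 against between 72.9 and 156 CPM in mLN. Klrb1c, which encodes the NK1.1 antigen, made up most of this sum, with between 72.3 and 155 CPM in the mLN DKO Treg libraries. It was also listed with Zbtb16 as a marker of invariant NKT cells. The sum of this pair was between 6.47 and 7.84 CPM in WT, against between 87.2 and 111 CPM in DKO Treg cells of spleen and pLNs. In mLN Treg cells it was between 5.31 and 9.26 CPM in WT, against between 73.8 and 156 CPM in DKO. The NK receptor gene Ncr1 was at 0.0769 and 0.0696 CPM in WT, against 2.52 and 2.25 CPM in DKO Treg cells of spleen and pLNs, and at or below 0.917 CPM in mLN Treg cells, while Klra8 was at or below 0.137 CPM in all Treg libraries. The means of Tyrobp and Fcer1g in Treg cells of spleen and pLNs were 0.178 and 0.112 CPM in WT, against 0.914 and 0.480 CPM in DKO, and Fcer1g was at 36.8 CPM in mLN DKO Treg replicate 3 alone. In Foxp3- cells the NK sum was between 62.8 and 100.3 CPM in WT, against between 117 and 223 CPM in DKO of spleen and pLNs, and between 7.58 and 13.6 against between 32.6 and 137 CPM in mLN. Of the CD8 markers, Cd8a was at or below 0.579 CPM in all libraries, and Cd8b1 had means of 18.2 CPM in WT, against 7.96 CPM in DKO Treg cells of spleen and pLNs and 18.6 against 3.41 CPM in mLN. The sum of 6 myeloid markers found of 7 listed was between 1.77 and 2.37 CPM in WT against between 9.08 and 22.8 CPM in DKO Treg cells of spleen and pLNs, and between 1.32 and 3.62 against between 3.67 and 20.0 CPM in mLN. The sum of 4 B cell markers was lower in DKO Treg cells, with between 27.7 and 29.5 CPM in WT, against between 9.76 and 12.6 CPM in spleen and pLNs, and between 26.8 and 35.4 against between 6.88 and 20.6 CPM in mLN. The part of these cell types in the results below was not tested, and fewer cells of a type and less RNA per cell cannot be told apart in such bulk samples.

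Replicate 1 of the spleen and pLN DKO Foxp3- cells and replicate 2 of those from mLN stood apart from the other libraries of their groups. In the spleen and pLN library the sum of the Treg markers Foxp3, Il2ra, Ikzf2 and Ctla4 was 558 CPM, against 127 CPM in the other DKO library, with Foxp3 itself at 0.251 CPM. In the mLN library this sum was 226 CPM, against 106 and 176 CPM in the other DKO libraries. The myeloid sum there was 25.1 CPM against 6.92 and 7.78 CPM, the B cell sum 15.1 against 2.22 and 4.68 CPM, and the NK sum 137 against 32.6 and 64.5 CPM. Both Foxp3- libraries were also the lowest of their group for most members, as the values below show. Among DKO Treg libraries, mLN replicate 2 had a myeloid sum of 20.0 CPM against 3.67 and 7.30 CPM, a B cell sum of 20.6 against 7.64 and 6.88 CPM and an NK sum of 72.9 against 156 and 147 CPM, and replicate 1 of spleen and pLNs had a myeloid sum of 22.8 against 9.08 CPM. Without this mLN library Il12rb2 and Il18r1 were called (log2 fold changes 4.17 and -1.56) and Il12rb1 was not (adjusted p = 0.0655), and without that of spleen and pLNs Il18r1 was not called (-2.01, adjusted p = 0.234).

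Counted over the 9 members, 1 was called in DKO Treg cells of spleen and pLNs, where 1.74% of all 16357 genes tested were called, and 3 were called in mLN, where 11.9% of 16784 were. The call in spleen and pLNs was a decrease (1.14% of all genes rose and 0.605% fell), and in mLN there was 1 increase and 2 decreases (8.5% of all genes rose and 3.43% fell). In Foxp3- cells 0 members were called by edgeR in either tissue, against 0.819% of all genes in spleen and pLNs (0.77% up and 0.0489% down) and 3.43% in mLN (3.12% up and 0.304% down). At an unadjusted p under 0.05 these were Ifng and Il18r1 in spleen and pLNs and Il12rb1, Il18r1 and Il18rap in mLN, and DESeq2 with the 4 groups also called 0. Without the library that stood apart, 0 were called in spleen and pLNs, with log2 fold changes between -0.47 (Ifng) and 0.36 (Il12rb2), and Il18rap was called in mLN, where they lay between -0.43 (Eomes) and 1.18 (Il12rb2). The share of all genes called moved with the libraries and the fit as well: it was 16.9% in Foxp3- cells of spleen and pLNs without DKO Foxp3- replicate 2, and in Treg cells of spleen and pLNs it was 10.4% without DKO Treg replicate 2, 3.96% by DESeq2 with the 4 groups, and 8.05% by edgeR and 6.26% by DESeq2 with the 2 groups alone. The median log2 fold change over the 8 members with enough reads for one was -0.50 in Treg cells and -0.67 in Foxp3- cells of spleen and pLNs, and -0.14 and -0.03 in mLN, while the median over all genes lay between 0 and 0.02. DKO and WT libraries did not overlap for 8 of 9 members in Treg cells of spleen and pLNs (Hlx among them, with 1 read in each WT and 0 in each DKO library), where 54.2% of all genes did not overlap, and for 4 of 9 in mLN, against 40.5%. In Foxp3- cells this held for 3 of 9 (41.9% of all genes) and 2 of 9 (20.9%).

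**Figure D1:**
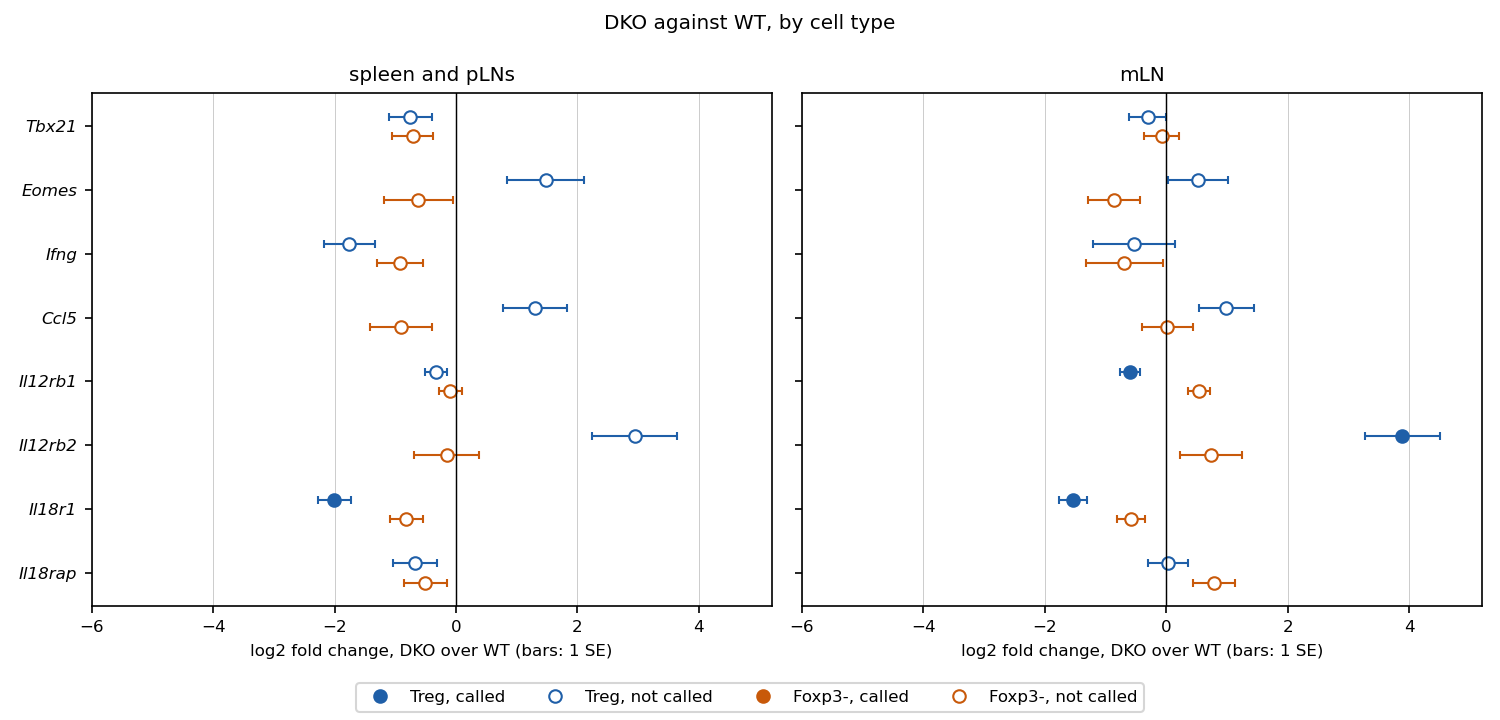
Log2 fold change of DKO over WT (x axis, bars 1 SE) of 8 members in Treg cells (blue) and CD4+Foxp3- cells (orange), for spleen and pLNs (left) and mLN (right). Filled points are called genes: Il18r1 on the left at -2.0, and Il12rb1, Il12rb2 and Il18r1 on the right at -0.60, 3.89 and -1.53.

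Il12rb2, which encodes the chain that makes the IL-12 receptor signal through STAT4, had the largest change among the members. The gene lies on chr6:67241312-67326182 of mm9, on the minus strand. In mLN, WT Treg cells held 0.329, 0.165 and 0.590 CPM, from 4, 2 and 6 reads, and DKO Treg cells held 6.64, 3.09 and 6.38 CPM, from 87, 43 and 76 reads. Each DKO library thus lay above each WT library. The log2 fold change was 3.89 (SE 0.62, adjusted p = 0.00121), and it lay between 3.54 and 4.38, always called, over all 14 alternatives. The WT Treg libraries of spleen and pLNs held 0.307 and 0.487 CPM and the DKO libraries 4.92 and 1.30 CPM. The direction was the same, with a log2 fold change of 2.94 (SE 0.70), but the adjusted p of 0.0578 missed the threshold, and it was called without DKO Treg replicate 2 (adjusted p = 0.0139), by DESeq2 with the 4 groups (adjusted p = 0.0109) and with the 2 groups alone by edgeR and DESeq2 (adjusted p = 0.0242 and 0.0226). Without DKO Treg replicate 1 it was 1.67 (adjusted p = 0.603). In Foxp3- cells Il12rb2 was at 9.65 and 6.91 CPM in WT, against 4.27 and 10.7 CPM in DKO of spleen and pLNs. The mLN Foxp3- cells held 1.87, 2.30 and 1.60 CPM in WT, against 3.46, 0.985 and 5.30 CPM in DKO. Groups overlapped in both tissues, and the log2 fold changes were -0.15 (SE 0.54, adjusted p = 0.985) and 0.73 (SE 0.51, adjusted p = 0.487). The mLN DKO Treg libraries thus lay above all mLN WT Foxp3- libraries and overlapped the DKO Foxp3- libraries in level, whereas the WT Treg libraries lay below all of these.

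Il12rb1, the chain shared by the receptors for IL-12 and IL-23, was among the higher members in Treg cells. It lies on chr8:73332348-73345323 of mm9. In mLN, WT Treg cells held 47.9, 54.0 and 54.0 CPM and DKO Treg cells 32.3, 34.6 and 36.0 CPM. The groups did not overlap, and the gene fell by 0.60 on the log2 scale (SE 0.17, adjusted p = 0.0261), close to the fold minimum. The call was lost without WT Treg replicate 1, 2 or 3 or without DKO Treg replicate 1 or 2 (adjusted p between 0.0510 and 0.0867). In mLN Foxp3- cells the order was the opposite: WT held 9.70, 14.3 and 11.9 CPM and DKO 14.6, 23.2 and 14.4 CPM, with a log2 fold change of 0.54 (SE 0.18, adjusted p = 0.125) that was called only without DKO Foxp3- replicate 1 (adjusted p = 0.0379). Treg cells of spleen and pLNs held 45.1 and 42.2 CPM in WT, against 38.3 and 31.1 CPM in DKO. The Foxp3- cells held 29.8 and 24.0 CPM in WT, against 22.7 and 27.9 CPM in DKO. Log2 fold changes there were -0.33 (SE 0.18, adjusted p = 0.340) and -0.09 (SE 0.19, adjusted p = 0.910).

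Il18r1, the ligand-binding chain of the IL-18 receptor, was lower in DKO Treg cells of both tissues. In spleen and pLNs, WT Treg cells held 89.5 and 92.2 CPM and DKO Treg cells 22.8 and 22.6 CPM. Replicates were close to each other and the groups far apart, and Il18r1 fell by 2.0 on the log2 scale (SE 0.28, adjusted p = 0.00502). The size held in every alternative (between -2.02 and -1.98), while the call was lost under edgeR's expression filter and robust prior (adjusted p = 0.0831 and 0.0637) and without WT Treg replicate 1 or 2 or DKO Treg replicate 1 (adjusted p = 0.123, 0.133 and 0.234). In mLN, WT Treg cells held 108, 114 and 82.8 CPM and DKO Treg cells 28.7, 36.4 and 40.4 CPM. All DKO libraries lay below all WT libraries, with a decrease of 1.53 on the log2 scale (SE 0.23, adjusted p = 0.000934) that was called in all 14 alternatives. Foxp3- cells of spleen and pLNs held 71.8 and 71.0 CPM in WT, against 25.2 and 55.9 CPM in DKO, and those of mLN 74.0, 80.3 and 63.4 CPM in WT, against 53.1, 28.9 and 63.7 CPM in DKO. The log2 fold changes were -0.82 (SE 0.27, adjusted p = 0.188) and -0.58 (SE 0.23, adjusted p = 0.188), neither called. The former was called without DKO Foxp3- replicate 2 (log2 fold change -1.50, adjusted p = 3.3e-05), which leaves the library that stood apart as the lone DKO sample.

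Il18rap, the accessory chain of the same receptor, was called in no comparison of DKO with WT. Treg cells of spleen and pLNs held 16.4 and 14.9 CPM in WT, against 11.1 and 8.53 CPM in DKO, and Foxp3- cells 21.3 and 19.5 CPM in WT, against 7.72 and 21.1 CPM in DKO. In mLN, Treg cells held 20.4, 23.3 and 20.2 CPM in WT, against 14.7, 21.8 and 28.6 CPM in DKO, and Foxp3- cells 6.55, 10.5 and 8.28 CPM in WT, against 20.8, 6.61 and 16.8 CPM in DKO. The log2 fold changes were -0.67 (SE 0.36, adjusted p = 0.316) and 0.03 (SE 0.33, adjusted p = 1.0) in Treg cells of spleen and pLNs and of mLN. In Foxp3- cells they were -0.50 (SE 0.35, adjusted p = 0.627) and 0.79 (SE 0.35, adjusted p = 0.240). Leaving out DKO Foxp3- replicate 2 gave calls in both tissues, with a decrease in spleen and pLNs (-1.4, adjusted p = 0.00106) and an increase in mLN (1.16, adjusted p = 0.0158).

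**Figure D2:**
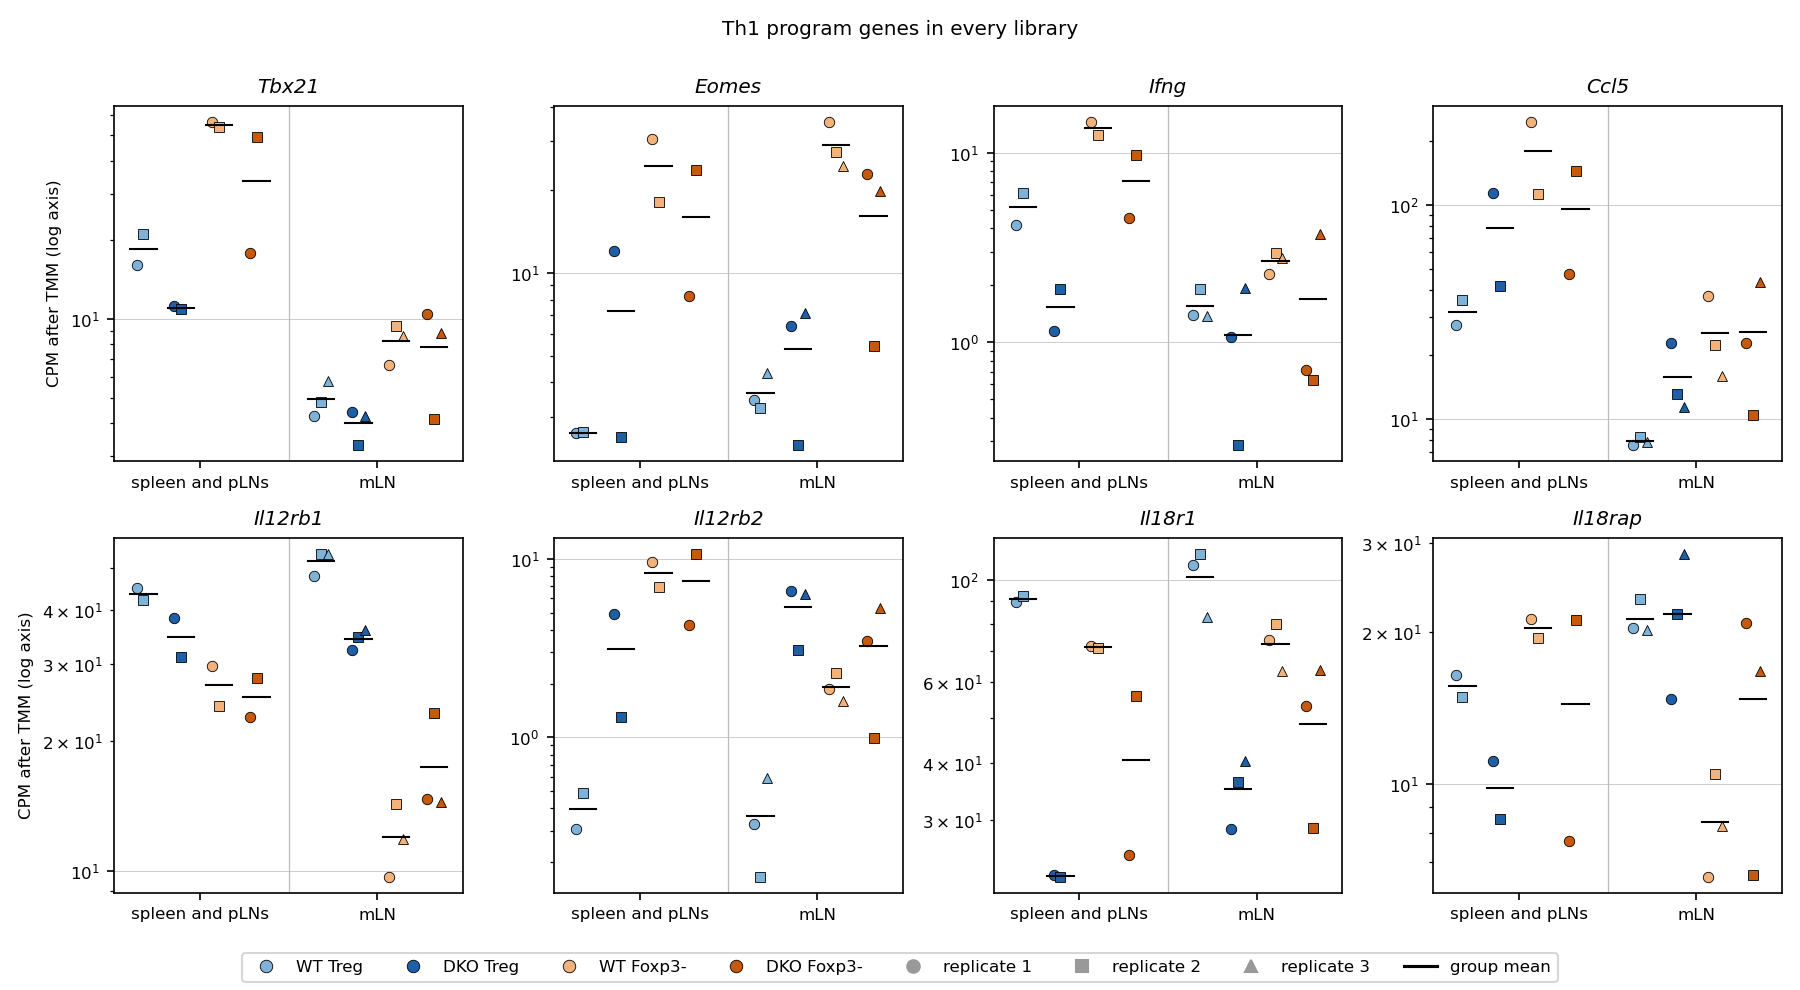
CPM after TMM normalization (log axis) of 8 members in every library, by group (colours) and replicate (symbols), with the group mean as a line; Hlx is left out because it had at most 3 reads in any library. Il12rb2 in WT Treg cells sat at or below 0.590 CPM and in DKO Treg cells at or above 1.30 CPM, while Il18r1 sat at or above 82.8 CPM in WT, against at or below 40.4 CPM in DKO Treg cells.

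Il18r1 and Il18rap are neighbours on mm9 (chr1:40522397-40557699 and chr1:40572207-40608550, plus strand), in the cluster of interleukin-1 receptor family genes. Il1rl1, which encodes the IL-33 receptor and ends 137 bases before Il18r1, was looked up for this position after its values were known. In DKO Treg cells it also fell by 4.03 on the log2 scale (SE 0.27, adjusted p = 7.50e-05) in spleen and pLNs and fell by 3.41 (SE 0.44, adjusted p = 0.000354) in mLN. In Foxp3- cells its log2 fold changes were 0.56 (adjusted p = 0.422) and 0.13 (adjusted p = 0.959). Il18rap, 14508 bases beyond Il18r1 on the other side, was not called. Within 100 kb of any member, 29 other genes were tested in mLN, of which 3 rose and 2 fell in DKO Treg cells (17.2%, against 11.9% of all genes), and 33 in spleen and pLNs, of which 1, Il1rl1, fell (3.03%, against 1.74%). Among them Il23r, the chain that joins IL12RB1 in the IL-23 receptor and lies 46744 bases from Il12rb2, rose in mLN DKO Treg cells (log2 fold change 2.68, adjusted p = 0.00511). The chemokine gene Ccl9, 42401 bases from Ccl5, rose there too (2.64, adjusted p = 0.00949).

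The transcription factors of the program were not called in any comparison of DKO with WT. Tbx21 was at 16.0 and 21.0 CPM in WT, against 11.2 and 10.9 CPM in DKO Treg cells of spleen and pLNs. In Foxp3- cells of this source it was at 56.2 and 53.6 CPM in WT, against 17.8 and 49.4 CPM in DKO. Means of both cell types were lower in DKO, with log2 fold changes of -0.75 (SE 0.36, adjusted p = 0.259) and -0.71 (SE 0.34, adjusted p = 0.414), and with edgeR on the 2 Treg groups alone the former was called (adjusted p = 0.0461). The latter was called without DKO Foxp3- replicate 2 (-1.63, adjusted p = 0.000127). In mLN, Treg cells held 4.27, 4.8 and 5.80 CPM in WT, against 4.43, 3.31 and 4.28 CPM in DKO, and Foxp3- cells 6.64, 9.38 and 8.58 CPM in WT, against 10.5, 4.15 and 8.84 CPM in DKO. The groups overlapped, with log2 fold changes of -0.31 (SE 0.30, adjusted p = 0.523) and -0.08 (SE 0.29, adjusted p = 0.959).

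Eomes, the other T-box factor, varied between libraries of a group. DKO Treg replicate 1 of spleen and pLNs held 12 CPM, where DKO replicate 2 held 2.53 CPM and the WT Treg libraries 2.61 and 2.65 CPM. The log2 fold change of 1.48 (SE 0.64, adjusted p = 0.214) rested on that library and was -0.061 without it. In mLN Treg cells Eomes was at 3.45, 3.23 and 4.33 CPM in WT, against 6.42, 2.37 and 7.13 CPM in DKO (log2 fold change 0.53, SE 0.49, adjusted p = 0.503). Foxp3- cells held 30.7 and 18.1 CPM in WT, against 8.22 and 23.6 CPM in DKO of spleen and pLNs, and 35.3, 27.4 and 24.3 CPM in WT, against 22.9, 5.42 and 19.9 CPM in DKO of mLN. The WT values lay above those of all WT Treg libraries, while Treg and Foxp3- libraries overlapped in DKO in both tissues. Between genotypes, Foxp3- libraries overlapped in spleen and pLNs, and in mLN all DKO libraries lay below all WT libraries. The log2 fold changes of DKO over WT Foxp3- cells were -0.62 (SE 0.57, adjusted p = 0.742) and -0.86 (SE 0.42, adjusted p = 0.299). Hlx was barely read, with between 0 and 3 counts in all 20 libraries, so no fold change is given for it.

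Ifng, the effector cytokine of Th1 cells, was not higher in DKO Treg cells of either tissue. In spleen and pLNs it was at 4.15 and 6.13 CPM in WT, against 1.14 and 1.91 CPM in DKO Treg cells. The DKO libraries lay below the WT libraries, but the log2 fold change of -1.76 (SE 0.42) had an adjusted p of 0.0578, and the call was made by DESeq2 with the 4 groups (adjusted p = 0.0212), with the 2 groups alone by edgeR and DESeq2 (adjusted p = 0.0181 and 0.0325) and without DKO Treg replicate 2 (adjusted p = 0.0469). The mLN Treg cells held 1.4, 1.90 and 1.38 CPM in WT, against 1.07, 0.287 and 1.93 CPM in DKO, from between 4 and 23 reads, and overlapped (log2 fold change -0.53, SE 0.68, adjusted p = 0.622). Foxp3- cells of spleen and pLNs held 14.5 and 12.4 CPM in WT, against 4.52 and 9.71 CPM in DKO. Those of mLN held 2.30, 2.97 and 2.79 CPM in WT, against 0.710, 0.633 and 3.71 CPM in DKO. Means were lower in DKO in each case, with log2 fold changes of -0.92 (SE 0.38, adjusted p = 0.319) and -0.69 (SE 0.64, adjusted p = 0.608), and in spleen and pLNs it was called without DKO Foxp3- replicate 2 (-1.57, adjusted p = 0.00570). In mLN the value was -1.99 without DKO Foxp3- replicate 3, the highest library (adjusted p = 0.0844), and -0.27 without replicate 2.

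Ccl5, a chemokine of effector T cells, had higher values in DKO Treg cells of both tissues without a call. Treg cells of spleen and pLNs held 27.4 and 35.9 CPM in WT, against 114 and 41.8 CPM in DKO, with the difference mostly in DKO replicate 1. In mLN the WT Treg libraries held 7.56, 8.27 and 7.77 CPM and the DKO libraries 22.5, 13.1 and 11.3 CPM. Neither tissue had an overlap, and the log2 fold changes were 1.30 (SE 0.52, adjusted p = 0.189) and 0.99 (SE 0.45, adjusted p = 0.148). Without DKO Treg replicate 1 of spleen and pLNs the former was 0.40. With the 2 Treg groups alone, edgeR and DESeq2 called Ccl5 in spleen and pLNs (adjusted p = 0.0463 and 0.0170) and in mLN (adjusted p = 0.0122 and 0.00259). Foxp3- cells held 244 and 112 CPM in WT, against 47.5 and 144 CPM in DKO of spleen and pLNs, and 37.4, 22.1 and 15.9 CPM in WT, against 22.6, 10.4 and 43.6 CPM in DKO of mLN. These groups overlapped, with log2 fold changes of -0.90 (SE 0.51, adjusted p = 0.511) and 0.02 (SE 0.42, adjusted p = 1.0), and in spleen and pLNs it was called without DKO Foxp3- replicate 2 (-1.91, adjusted p = 0.0187).

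Members were also ranked within each group by the deposited TPM, a unit that by definition allows for gene length. The lengths used are not given. Ccl5 was the highest member in 7 of the 8 groups, with means there of between 61.2 TPM in DKO Treg cells of mLN and 474 TPM in WT Foxp3- cells of spleen and pLNs. Hlx was last in all 8 groups. Il12rb2 had rank 8 in 7 groups and rank 5 in mLN DKO Treg cells, where it reached 3.78 TPM, not separated from Tbx21 next in order. In WT Treg cells of mLN the order began with Il18r1 (38.7 TPM), Il12rb1 (33.1 TPM) and Ccl5 (27.1 TPM), and the ranges of Il18r1 and Il12rb1 overlapped. In DKO Treg cells of mLN it began with Ccl5 (61.2 TPM), Il12rb1 (24.6 TPM) and Il18r1 (15.1 TPM), with no overlap among these. Of the 8 steps in the order, 1 overlapped between libraries in WT and 5 in DKO Treg cells of spleen and pLNs, and 3 in each genotype in mLN. In Foxp3- cells 3 overlapped in WT and 6 in DKO of spleen and pLNs, and 2 and 6 in mLN.

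The second axis of the design compared Treg with Foxp3- cells within a genotype. In WT mice, members of the program differed widely between the cell types: 4 of 9 were called in spleen and pLNs, all lower in Treg cells (4% of all genes were called, 2.48% higher and 1.52% lower), and 5 of 9 in mLN, 3 lower and 2 higher (10.1% of all genes, 6.91% higher and 3.14% lower). Il12rb2 was 20.3-fold lower in WT Treg than in WT Foxp3- cells of spleen and pLNs and 5.36-fold lower in mLN. Eomes was 9.25-fold and 7.93-fold lower, and Ccl5 5.62-fold and 3.19-fold lower. Tbx21 was 2.96-fold lower in spleen and pLNs, and Il12rb1 and Il18rap were 4.33-fold and 2.51-fold higher in mLN. With the same-numbered libraries paired, the spleen and pLN comparison called 0 of these (adjusted p of Il12rb2 0.103) and 2.2% of all genes, while mLN called 6 and 10.6% of all genes, now with Tbx21 (log2 fold change -0.73, adjusted p = 0.0426). Leaving out either WT Treg library of spleen and pLNs left 0 calls and leaving out either WT Foxp3- library left 1, with between 0.888% and 1.22% of all genes called. In mLN, leaving out Treg replicate 1, 2 or 3 left 3, 2 and 3 calls, and leaving out Foxp3- replicate 1 left 2, with between 6.87% and 7.56% of all genes called.

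In DKO mice 2 of 9 members were called in spleen and pLNs (3.77% of all genes, 2.16% higher and 1.61% lower) and 3 in mLN (11.2%, with 7.75% higher and 3.49% lower). Ifng and Tbx21 were 4.65-fold and 3.04-fold lower in DKO Treg than in DKO Foxp3- cells of spleen and pLNs, and with the libraries paired Ifng alone was called (adjusted p = 0.0365), Tbx21 having an adjusted p of 0.141. Without DKO Foxp3- replicate 2 the log2 values moved from -2.22 to -1.58 for Ifng and from -1.61 to -0.69 for Tbx21 (adjusted p = 0.0133 and 0.0537), and without DKO Foxp3- replicate 1 to -2.68 and -2.17. In mLN, Eomes and Tbx21 were 3.02-fold and 1.94-fold lower and Il12rb1 was 1.96-fold higher in DKO Treg cells. Without DKO Foxp3- replicate 1, a library that stood apart, 5 members and 9.85% of all genes were called in spleen and pLNs. Without DKO Foxp3- replicate 2 of mLN, the other such library, 5 members and 17.6% of all genes were called in mLN, and the remaining leave-out fits gave 1 or 2 there and between 0 and 1 in spleen and pLNs. Il12rb2, which separated WT Treg from WT Foxp3- cells in both tissues, was not called in DKO in either, with log2 values of -1.24 (SE 0.56, adjusted p = 0.336) in spleen and pLNs and 0.73 (SE 0.49, adjusted p = 0.347) in mLN.

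**Figure D3:**
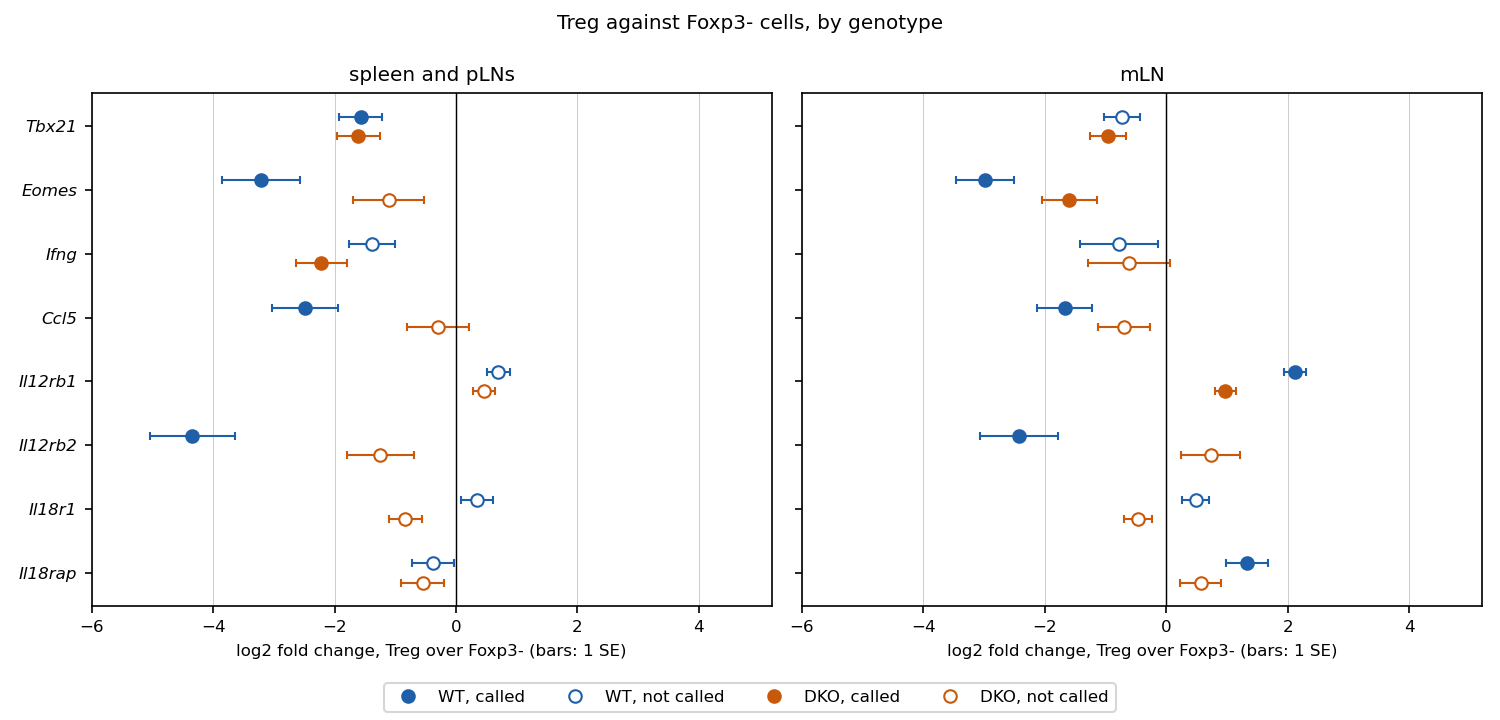
Log2 fold change of Treg over CD4+Foxp3- cells (x axis, bars 1 SE) of 8 members in WT (blue) and DKO (orange) mice, for spleen and pLNs (left) and mLN (right), with called genes filled. Il12rb2 lies at -4.34 and -2.42 in WT and at -1.24 and 0.73 in DKO.

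Whether the DKO effect differed between Treg and Foxp3- cells was tested as an interaction between genotype and cell type, for which 0 members passed an adjusted p of 0.05 by edgeR in either tissue (0.00611% and 0.28% of all genes passed). At an unadjusted p under 0.05 were Eomes, Ccl5, Il12rb2 and Il18r1 in spleen and pLNs and Il12rb1, Il12rb2 and Il18r1 in mLN. The smallest adjusted p was that of Il12rb1 in mLN (interaction -1.14 on the log2 scale, SE 0.25, adjusted p = 0.0762), followed by Il12rb2 in mLN (3.16, SE 0.81, adjusted p = 0.134). DESeq2 with the 4 groups passed both of these in mLN (adjusted p = 0.00436 and 0.0223), with 2.44% of all genes, and 0 in spleen and pLNs, with 0.0672%. With the same-numbered libraries paired, edgeR passed 0 members in either tissue. In mLN that fit gave adjusted p of 0.0518 for Il12rb1, 0.0530 for Eomes (interaction 1.44, SE 0.26) and 0.0540 for Il12rb2 (3.32, SE 0.61). Without DKO Foxp3- replicate 2 of mLN, edgeR passed Il12rb1, Il12rb2 and Il18r1 (adjusted p = 0.0196, 0.0292 and 0.00604) and 2.77% of all genes, and without DKO Foxp3- replicate 1 Il12rb1 alone (adjusted p = 0.0250) and 1.4% of all genes. In spleen and pLNs, Il18r1 passed without DKO Foxp3- replicate 1 (adjusted p = 0.00202), with 0.149% of all genes, and Eomes, Ccl5 and Il12rb2 without replicate 2 (adjusted p = 0.0474, 0.0120 and 0.0172), with 4.14% of all genes.

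The other genes of the pathway were described from a list of 34, of which 33 were tested in each tissue, ordered by role. In DKO Treg cells of spleen and pLNs 3 rose and 0 fell, all 3 among the 7 effector and chemokine genes, where 1.14% and 0.605% of all genes did. In DKO Treg cells of mLN 7 rose and 6 fell, where 8.5% and 3.43% of all genes did. Of the 7 effector and chemokine genes 4 rose and 2 fell, of 6 transcription factors 3 rose, of 10 signal transduction genes 2 fell, and 1 of 4 receptors and 1 of 3 ligand or antagonist genes fell. No gene was called among the 3 chemokine receptors and surface molecules in either tissue. In Foxp3- cells 1 gene rose in spleen and pLNs and 3 rose in mLN, with 0 falling, where 0.77% and 3.12% of all genes rose. The median log2 fold change of the list lay between -0.053 and 0.14 in these 4 comparisons.

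The genes called in the same direction in both tissues were Ccl3, Ccl4 and Xcl1 in Treg cells and Twist1 in Foxp3- cells. Ccl3 and Ccl4, which encode the chemokines MIP-1α and MIP-1β, were nearly silent in WT Treg cells of mLN. Ccl3 held 0, 0 and 0.0984 CPM there and 4.74, 3.31 and 32.7 CPM in DKO Treg cells (adjusted p = 0.00546). Libraries of spleen and pLNs held 0.154 and 0.418 CPM in WT, against 16.7 and 2.80 CPM in DKO (adjusted p = 0.0131). Every DKO library lay above every WT library, though the highest DKO library held several times the others, and in mLN this was replicate 3, in which Fcer1g was at 36.8 CPM. Ccl4 held 0.164, 0.331 and 0.295 CPM in WT, against 6.34, 3.23 and 18.2 CPM in DKO Treg cells of mLN (adjusted p = 0.00611), and 1.69 and 2.16 CPM against 31.3 and 7.92 CPM in spleen and pLNs (adjusted p = 0.0221). Xcl1, the chemokine lymphotactin, held 2.14, 0.910 and 1.67 CPM in WT, against 14.3, 7.12 and 22.9 CPM in DKO Treg cells of mLN (adjusted p = 0.0347), and 3.84 and 1.53 CPM against 7.33 and 11.5 CPM in spleen and pLNs (adjusted p = 0.0424). These chemokines are also made by NK cells, whose part here was not tested. The NK marker sum, mostly Klrb1c, was higher in DKO than in WT Treg cells, as given above. It was 156, 72.9 and 147 CPM in mLN DKO Treg replicates 1, 2 and 3, where Ccl3 was at 4.74, 3.31 and 32.7 CPM. Twist1, a factor that restrains the Th1 program after repeated stimulation, held no read in WT Foxp3- cells of mLN and 1.06, 15.4 and 1.77 CPM in DKO, a mean at least 24.1-fold above the floor of 3 counts per library averaged over the WT libraries, and at least 5.61-fold without DKO replicate 2 (adjusted p = 0.0219). Foxp3- cells of spleen and pLNs held 0 and 0.0804 CPM in WT, against 5.90 and 1.19 CPM in DKO (adjusted p = 0.0456). The highest Twist1 values were in the 2 libraries that stood apart.

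**Figure D4:**
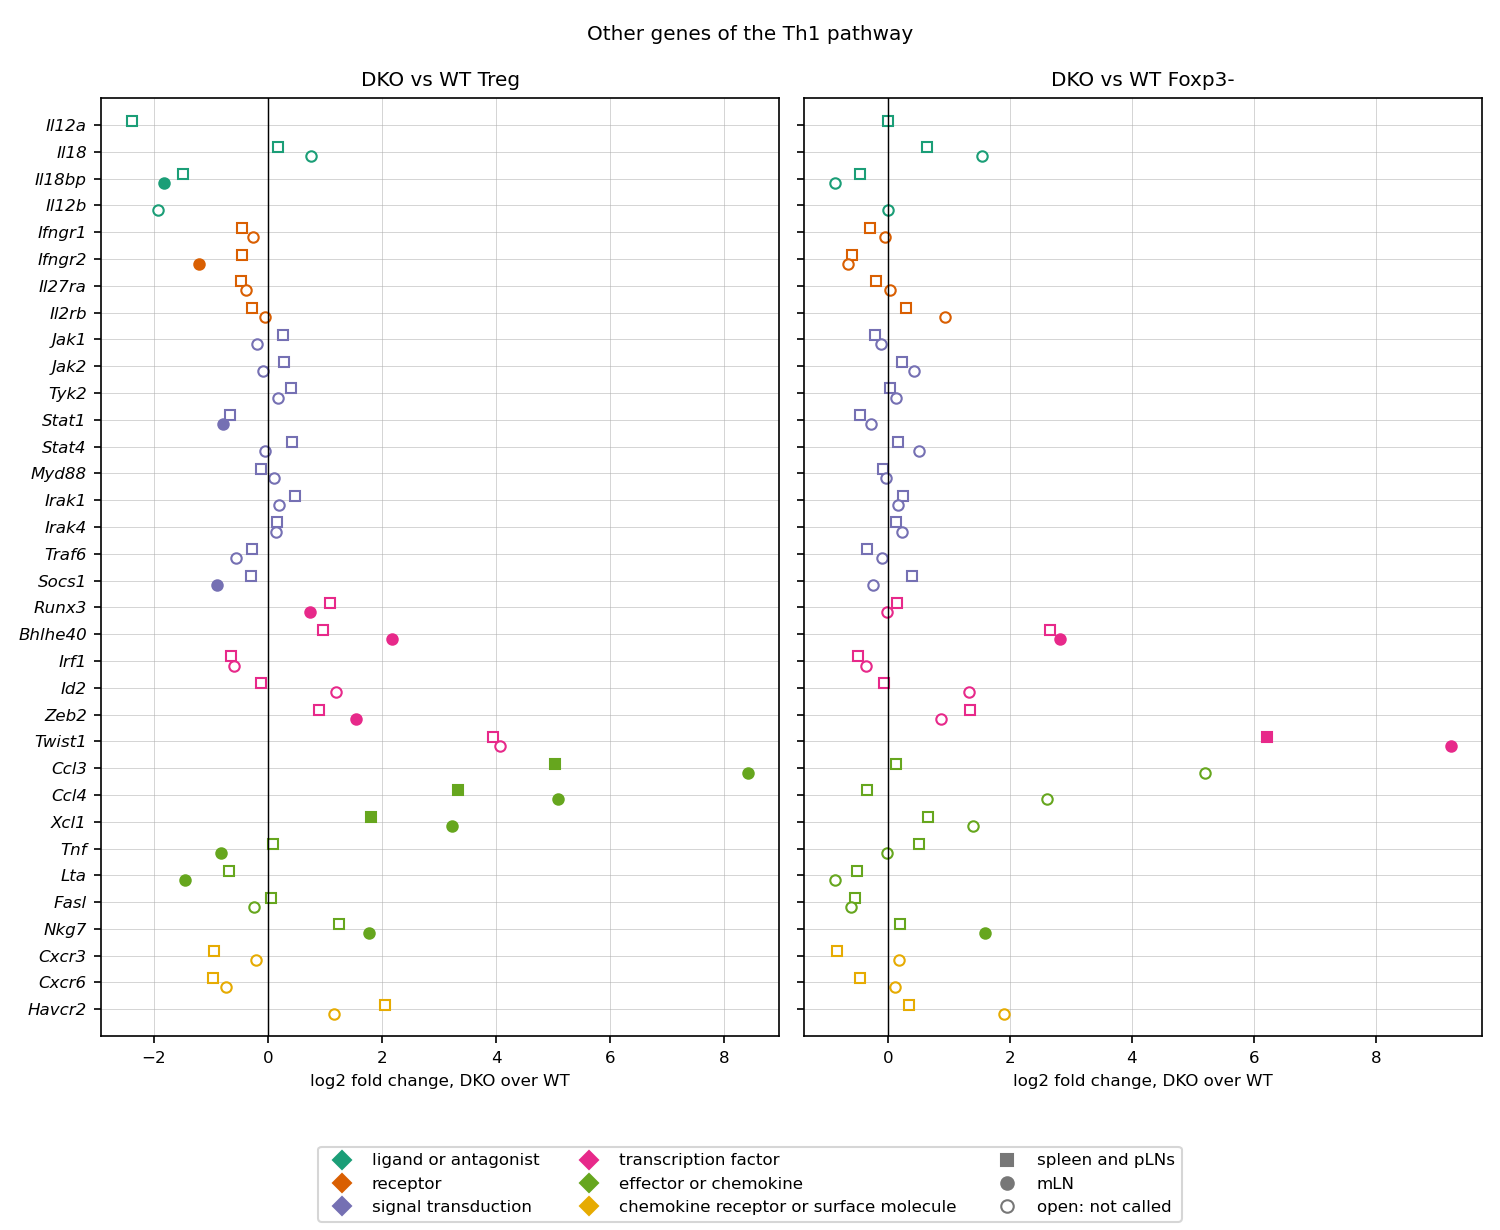
Log2 fold change of DKO over WT (x axis) of the other Th1 pathway genes, coloured by role, in Treg cells (left) and CD4+Foxp3- cells (right), with squares for spleen and pLNs, circles for mLN and filled symbols for called genes; fitted values against groups with almost no reads (Ccl3, Twist1) depend on the prior count. Ccl3, Ccl4 and Xcl1 are filled in both tissues on the left and Twist1 in both on the right.

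The genes whose log2 CPM followed each member most closely over the 12 mLN libraries were sought among those averaging at least 5 CPM, and their Pearson correlation was taken again over the 8 libraries of spleen and pLNs. All points share the 4 groups, so the values describe group levels. Tbx21 was followed by Rufy2 (r = 0.975 in mLN, 0.912 in spleen and pLNs) and Mtmr10 (0.963, 0.718), and Eomes by Nckap5l (0.979, 0.792) and Hmgn1 (0.969, 0.530). Il12rb1 was followed by Pros1 (0.976, 0.717) and Dapp1 (0.974, 0.750), and Il18r1 by Ppp4r2 (0.980, 0.602) and Prpf18 (0.953, 0.904). The nearest genes to Il12rb2 were Cntrl (0.931 in mLN) and Hagh (0.914, 0.662), and to Ccl5 Yeats2 (0.885, 0.677) and Wscd2 (0.859, 0.570). For Il18rap they were Slc43a1 (0.899, -0.578) and Phf11a (0.895 in mLN), for Ifng Uvssa (0.954 in mLN) and Ice1 (0.932 in mLN), and for Hlx, with its few reads, Zfp169 (0.886, -0.039) and Ccdc77 (0.767, 0.197). Likeness held in both tissues for Tbx21 with Rufy2 and Il18r1 with Prpf18, each above 0.9, and turned in sign for Il18rap with Slc43a1.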

How the data were processed

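Poly(A) RNA of 20 sorted samples was sequenced: 2 biological replicates of each of 4 groups from spleen and pLNs and 3 of each from mLN. The deposited counts are whole reads per RefSeq gene: the authors mapped reads to mm9 (TopHat2 2.1.1, no more than 1 hit for a read) and assigned them by strand using featureCounts (Subread 1.4.3-p1). How the authors computed the deposited TPM is not given in the sources used here. All columns were mapped to samples from the labels, leaving 0 unused. The submitters' notes also list bcl2fastq 2.20.0.442.

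The members, lists and alternatives were chosen with earlier results of these data known. Each table was normalized (TMM) and tested on its own with edgeR 4.0.16 (limma 3.58.1, R 4.3.3), with the 4 groups in one quasi-likelihood fit and genes of at least 1 count in total. SE is the log2 fold change divided by the square root of its F. A fold was given only to genes with more than 3 counts in some library. All 9 members were described in every comparison of DKO with WT, and only called ones with folds between cell types. List genes were named where called in the same direction in both tissues. A gene of the pathway list was left out and is not reported here. Genes near Il18r1, Il12rb2 and Ccl5 were named after their values were seen. Positions come from GENCODE M1 on NCBIM37, the assembly of mm9, and start regions from RefSeq on GRCm38.p6.

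Same-numbered Treg and Foxp3- libraries of a genotype deviated together from their group means in every pair. The r was between 0.145 and 0.518 over 9475 genes in mLN, and 0.282 and 0.311 over 9264 in spleen and pLNs. Such libraries were paired in alternative fits only, and the main fits held no replicate block. In mLN, DKO Foxp3- replicate 1 went better with Treg replicate 3 (r = 0.174) than with Treg replicate 1 (r = 0.145). WT and DKO libraries of one number did not deviate together in every mLN pair (r down to -0.043). In spleen and pLNs r was 0.280 and 0.303, and the replicate block kept the same counts of members called for DKO against WT. No replicates of a group agreed within sampling noise. The chi-square per degree of freedom lay between 3.69 and 8.46 for pairs of WT libraries and between 14.9 and 87.8 for pairs of DKO libraries. The labels number the replicates and do not say whether a sample is a single mouse or a pool. The 4 groups of a tissue shared a common spread estimate in the fit, so its SE need not cover the wider spread of the DKO groups. The fits were tested on simulated data with known changes, where unchanged genes made up more of the calls than the nominal rate, by far the more so in the spleen and pLN design with 2 libraries a group, so single calls there are less certain than their adjusted p.

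Alternatives were DESeq2 1.42.0 with the 4 groups or the 2 groups compared, its size factors in edgeR, edgeR on the 2 groups compared, filterByExpr, the robust prior, replicate blocks, no fold minimum, and leaving out each replicate. Figures were drawn with matplotlib 3.10.9 (Python 3.11.15, numpy 2.4.6, pandas 2.3.3).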

Additional observations from a re-analysis of the deposited data

Results flagged for a closer look

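Il12rb1 in mLN was the member whose DKO libraries all moved one way in one cell type and all the other way in the other: each DKO Treg library lay below each WT Treg library, and each DKO Foxp3- library above each WT Foxp3- library. The interaction was -1.14 on the log2 scale (SE 0.25), with an adjusted p of 0.0762 by edgeR and 0.00436 by DESeq2 with the 4 groups, and 0.0518 with the same-numbered libraries paired. In spleen and pLNs the interaction of Il12rb1 was -0.24 (SE 0.26, adjusted p = 1.0). Leaving out 1 library, the mLN interaction lay between -1.30 and -0.90, with an adjusted p between 0.0196 and 0.215 that passed without DKO Foxp3- replicate 1 or 2 and in none of the other 10 such fits.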

How the results depend on the processing

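Over 614 refits of single members under the alternatives, 599 kept the direction, 506 also kept their side of the threshold, 73 lost the call, 20 gained one and 15 turned in sign, and the cause of these changes was not tested unless the alternative itself shows it (fewer samples or genes). In Treg cells of mLN, DKO against WT called between 2 and 4 members in every alternative (between 7.93% and 19.4% of all genes). In Treg cells of spleen and pLNs, where 1 was called, the count was 3 with DESeq2 on the 4 groups (3.96% of all genes called, against 1.74%), 4 with DESeq2 and 5 with edgeR on the 2 groups compared (6.26% and 8.05%), 0 with filterByExpr (0.206%), 0 with the robust prior (0.697%), and between 0 and 3 leaving out 1 library (between 0.0247% and 10.4%). In Foxp3- cells it was between 0 and 5 in spleen and pLNs (between 0.00616% and 16.9% of all genes) and between 0 and 1 in mLN (between 0.341% and 8.69%) leaving out 1 library. Between the cell types of WT, the 4 calls of spleen and pLNs became 1 with filterByExpr (3.25% of all genes, against 4%), 1 with the robust prior (2.95%), 2 with the replicate block (3.64%), 0 with the block within genotype (2.2%) and between 0 and 1 leaving out 1 library (between 0.888% and 1.22%), while leaving out 1 library gave between 2 and 4 of the 5 in mLN (between 6.87% and 7.56%, against 10.1%). With the 2 groups compared alone, spleen and pLNs gave 6 with edgeR (13.7%) and DESeq2 (9.72%), and mLN 7 with edgeR (16.3%) and 6 with DESeq2 (14%). Between the cell types of DKO, the 2 calls of spleen and pLNs became 0 with filterByExpr (2.93%, against 3.77%), 1 with the robust prior (2.57%), 1 with the replicate block (3.37%), 1 with the block within genotype (2.13%), 0 with edgeR (1.21%) and 1 with DESeq2 (2.41%) on the 2 groups, and between 0 and 5 leaving out 1 library (between 1.16% and 9.85%). In mLN the 3 calls became 1 with edgeR (5.58%, against 11.2%) and 2 with DESeq2 (9.25%) on the 2 groups, 2 with the robust prior (10.6%) and between 1 and 5 leaving out 1 library (between 9.14% and 17.6%). For the interaction, DESeq2 on the 4 groups passed 2 in mLN (2.44%, against 0.28%), and leaving out 1 library passed between 0 and 3 in each tissue (between 0% and 4.14% of all genes in spleen and pLNs and between 0.0538% and 2.77% in mLN). The replicate blocks changed no other count of members by over 1.5 times. Of all genes, 0.703% passed the mLN interaction under the block within genotype, against 0.28% in the main fit.

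Signs turned where the fold was near 0 or rested on 1 library, as ranges of the log2 fold change leaving out 1 library show. In Treg cells Eomes lay between -0.061 and 2.19 in spleen and pLNs and Il18rap between -0.22 and 0.24 in mLN. In Foxp3- cells of spleen and pLNs Il12rb1 lay between -0.25 and 0.071, Il12rb2 between -0.96 and 0.36 and Il18rap between -1.40 and 0.049. In those of mLN Tbx21 lay between -0.35 and 0.24 and Ccl5 between -0.61 and 0.42, with -0.014 for Ccl5 under the replicate block. Depth limited Hlx, with at most 3 counts, and Il12rb2 in WT Treg cells, with at most 7. Leaving out 1 of 2 libraries assumes that the lone one varies like the other groups.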
